A study of Mus musculus with 32 samples.

Results

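Spinal cord that had been injured and given Gsx1 was compared at 35 days and at 14 days after the injury. The comparison holds the 4 libraries labelled SCI+Gsx1 at 35 days and the 3 at 14 days, chosen by their labels alone, 7 of the 32 libraries of the series. Each library is bulk RNA-seq of spinal cord from C57BL/6J mice labelled as 8 to 12 weeks old, cut from either side of the lesion. Both time groups share the injury and the Gsx1 treatment. Beside them stand injured control cord (labelled SCI+Ctrl, 3 libraries at 14 days and 4 at 35 days), sham cord at 35 days (3 libraries) and Gsx1 cord at 3 days (3 libraries). Sham and injured control cord at 3 days, and cord labelled SCI+Nkx6.1 at 3 and 35 days, entered the same fit but are not compared here. The sources used here do not say how Gsx1 was delivered, to which cells, what the control cords received, the sex of the mice, or whether each library is a separate animal. The p-values therefore measure only spread between libraries. That spread was estimated over all 32 libraries in 10 groups, unless a smaller fit is named. In bulk tissue, fewer cells of a type and less RNA per cell cannot be told apart.

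Gsx1 is a homeodomain transcription factor of the embryonic spinal cord, where it acts in dividing progenitors that give rise to dorsal interneurons. In the weeks after a cord injury, damaged neurons switch on growth and stress genes, oligodendrocyte precursors divide and mature, and phagocytes clear debris. Astrocytes and fibroblasts meanwhile lay down a scar of chondroitin sulfate proteoglycans and collagens. The comparison asks which of these transcripts differed between an earlier and a later time in treated cord.

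The 7 libraries held between 10823632 and 19512107 assigned reads, and 17504 to 18085 genes had at least 1 read. Levels are given as CPM, read counts divided by the scaled library total, and fold changes on the log2 scale as 35 days minus 14 days with their standard error. The Gsx1 transcript itself was close to the detection limit: 7, 3 and 10 reads at 14 days and 4, 6, 3 and 5 reads at 35 days, against 0 to 4 reads in the injured control libraries of the same times. Too few for the filter on low counts, it was fitted only with that filter off, where its log2 difference over time was -0.52 ± 0.76, with a 95% interval from -2.08 to 1.03, so its level over time was not resolved at this depth. Markers of cord tissue were present in every library, with summed pan-neuronal levels of 11118 to 13408 CPM and Mbp, a myelin protein, at 12771 to 23276 CPM.

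A pair of libraries stood apart from their groups. At 35 days, replicate 3 correlated with the other 3 at 0.9786 to 0.9833 (Pearson's r of log2 levels across genes), while those 3 correlated with each other at 0.9927 to 0.9936. At 14 days, replicate 3 correlated with the other replicates at 0.9811 and 0.9829, against 0.9898 between those. The same 14-day library carried 156 CPM of Gabra2 against 39.8 to 48.5 in the other 6, 13.2 CPM of Rpl29 against 85.8 to 124, and 21 CPM of H2-Bl against 2.19 to 4.36. Injured control replicates 1 and 2 at 14 days held similar levels of these genes (Gabra2 at 134 and 138 CPM). Rpl29 and H2-Bl belong to families with near copies, so their counts are uncertain. For many of the results that leaving out a library moved by much, both values are given. Lists were recomputed without each 14-day library and without replicates 1 and 3 at 35 days. All 7 libraries were low in Xist (at most 3.7 CPM), whereas injured control replicates 1 and 4 at 35 days held 407 and 676 CPM, the latter together with 32.1 CPM of the Y-linked Ddx3y. Sham replicate 3 at 35 days held 520 CPM of Xist and 0.574 CPM of Ddx3y.

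Few genes were called between 14 and 35 days in Gsx1 cord, and which ones depended on the fit. Of 16314 genes tested, 1 (0.00613%) passed an adjusted p of 0.05 in edgeR's quasi-likelihood test, and it fell by less than 2-fold. Without adjustment, 587 genes (3.6%) had a p under 0.05, 380 of them lower (2.33%) and 207 higher (1.27%) at 35 days. Of all genes, 7973 (48.9%) were below 0 in log2 difference. DESeq2 on the same genes called 9 (0.0552%), all lower at 35 days. No gene was called higher at 35 days by either tool. The estimates were tight for most genes: the 95% interval lay within 2-fold of no change for 12943 genes (79.3%) and within 1.5-fold for 9339 (57.2%). Precision depended on level, with a median half-width of 0.39 log2 units over all genes, 0.27 in the 6910 genes at a mean log2 CPM of 5 or more, and 1.23 in the 2053 under 1. The CPM of the time groups did not overlap for 644 genes lower at 35 days (3.95%) and 581 higher (3.56%), together 7.51%.

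**Figure D1:**
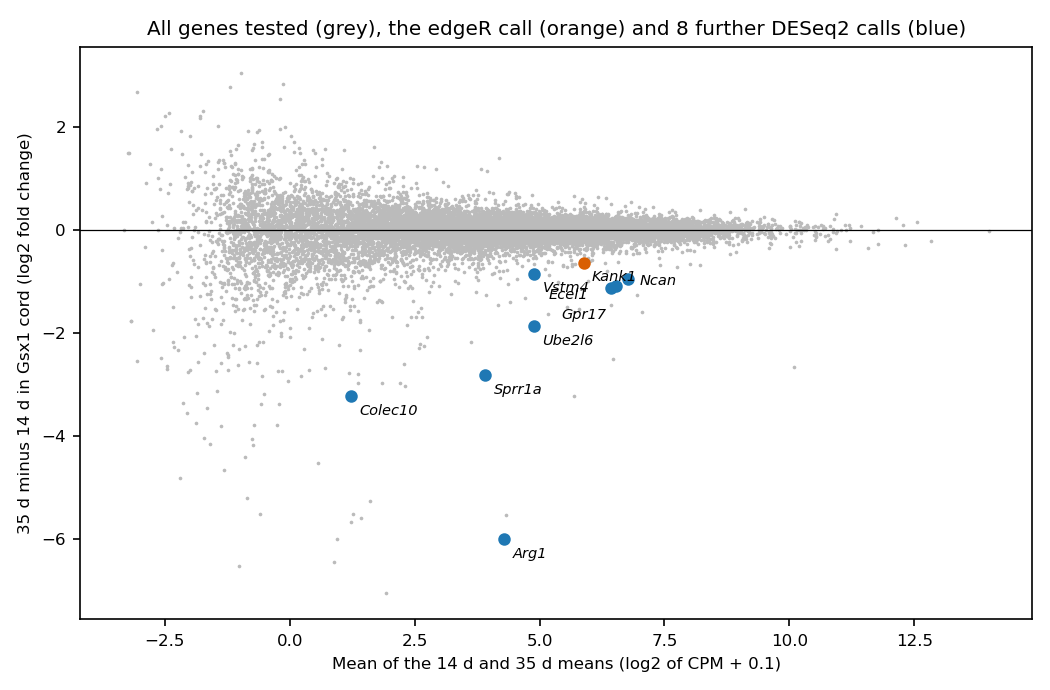
Each grey point is a gene tested, with the mean of the 14-day and 35-day levels in Gsx1 cord on the x axis (log2 of CPM + 0.1) and the log2 fold change of 35 over 14 days on the y axis. Kank1 (orange, -0.64) and the 8 further genes called by DESeq2 (blue, -0.85 to -6.01) all lie below 0.

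The gene that fell was Kank1, which encodes a KN motif and ankyrin repeat protein that restrains actin polymerisation. It lies on chromosome 19 (25236975 to 25434496, plus strand, GRCm38). Its level was 63.2, 77.1 and 74.5 CPM at 14 days and 47.7, 43.3, 45.7 and 47.5 CPM at 35 days. Every 35-day library was below every 14-day library, and the 35-day values spanned less than 5 CPM. The log2 difference was -0.64 ± 0.09, a 1.55-fold fall, with an adjusted p of 0.00203. Leaving out any of the 7 libraries gave -0.58 to -0.72 and adjusted p-values of 0.00095 to 0.0361. A fit of the 7 libraries alone, with 5 residual degrees of freedom, gave the same -0.64 but an adjusted p of 0.167, which ends the call. That smaller fit called 2 of 15613 genes (0.0128%), Ecel1 and Sprr1a, both lower at 35 days.

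Kank1 also fell in injured control cord, from 72.9, 68.8 and 69.8 CPM at 14 days to 46.7, 53.5, 47.9 and 46.4 CPM at 35 days (log2 -0.54 ± 0.09, adjusted p = 0.0126). The change in Gsx1 cord minus that in control cord was -0.10 ± 0.13, with an interval from -0.36 to 0.16. Sham cord at 35 days held 47.4, 46.6 and 42.9 CPM, and Gsx1 cord at 3 days held 77.8, 68.1 and 81.9 CPM. The 35-day Gsx1 values thus overlapped those of sham cord, and the 14-day values those of Gsx1 cord at 3 days, comparisons for which no test was run.

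The sequences before the start of Kank1 and of Sprr1a, an injury gene described next, are printed since Kank1 is the called gene and Sprr1a carries a motif of the injury response. The table of promoters from RefSeq (GRCm38.p6) held 6 of the 9 genes called by DESeq2, and the 250 bases before the annotated start were searched on both strands for the AP-1 motif TGANTCA and the cAMP response element TGACGTCA, both palindromic apart from the N. Capitals mark AP-1 matches. The Kank1 window is chr19:25236725-25236974 (plus strand) and the Sprr1a window chr3:92485882-92486131 (minus strand).
Kank1: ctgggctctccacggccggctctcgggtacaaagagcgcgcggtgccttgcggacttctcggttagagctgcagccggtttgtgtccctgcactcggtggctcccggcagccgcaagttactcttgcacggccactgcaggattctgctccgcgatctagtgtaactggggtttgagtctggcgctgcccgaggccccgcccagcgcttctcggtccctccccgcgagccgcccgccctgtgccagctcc
Sprr1a: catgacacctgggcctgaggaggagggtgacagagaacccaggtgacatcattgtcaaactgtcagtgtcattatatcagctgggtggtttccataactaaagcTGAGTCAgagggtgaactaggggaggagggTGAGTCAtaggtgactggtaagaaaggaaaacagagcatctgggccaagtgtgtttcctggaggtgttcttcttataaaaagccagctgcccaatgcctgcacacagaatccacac
Sprr1a held the motif TGAGTCA at 2 places, 146 to 140 and 116 to 110 bases before its start, while the windows of Kank1, Ecel1, Ncan, Vstm4 and Ube2l6 held neither motif. Among 27025 promoters of the table, 1856 (6.87%) held at least 1 AP-1 match in this window and 88 (0.326%) held 2 or more. A cAMP response element was present in 439 (1.62%). A match describes the letters and is not evidence of binding. The starts are those of RefSeq. On GENCODE positions the windows of Ecel1, Ncan and Sprr1a lie partly inside the genes. The Ecel1 window is chr1:87156357-87156606 (minus strand), and its gene reaches to 87156521.

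The further genes called by DESeq2 include transcripts of damaged or regrowing neurons. Sprr1a, a small proline-rich protein induced in axotomised neurons, was at 34.9, 24.9 and 19 CPM at 14 days and at 2.39, 2.98, 3.7 and 5.7 CPM at 35 days. The groups did not overlap, and even the highest 35-day library was under the lowest 14-day library. The log2 difference was -2.82 ± 0.57 (7.07-fold lower), with an adjusted p of 0.125 in edgeR and 0.0148 in DESeq2. In injured control cord Sprr1a went from 26.2, 14.7 and 19.4 CPM to 20.7, 2.43, 4.72 and 6.1 CPM, an overlap that rests on replicate 1 at 35 days (log2 -1.25, adjusted p = 0.172). Sham cord at 35 days held at most 0.0848 CPM.

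Ecel1 encodes a membrane endopeptidase induced by nerve damage. It was at 137, 122 and 97 CPM at 14 days and at 51.2, 50.9, 55.6 and 57.4 CPM at 35 days. All 4 later libraries were close together and below all earlier ones, with a log2 difference of -1.14 ± 0.22 (2.2-fold lower). The adjusted p was 0.0988 in edgeR and 0.00257 in DESeq2. Injured control cord had a difference of nearly the same size, -1.06 ± 0.22 (adjusted p = 0.0392), and the difference between the treatments was -0.08 with an interval from -0.72 to 0.55. Sham cord at 35 days averaged 50.5 ± 5.25 CPM (SD, n = 3).

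Arg1, arginase, a gene of both injured neurons and repair macrophages, had the largest fitted difference of the 9, and its size and call turned on single libraries. Its level was 6.64, 0.344 and 108 CPM at 14 days and 0.61, 0.372, 1.27 and 0.0548 CPM at 35 days. The groups overlapped, since replicate 2 at 14 days was as low as the 35-day libraries. The log2 difference was -6.01 ± 1.21 (edgeR adjusted p = 0.125, DESeq2 0.000736), and it was -2.55 without replicate 3 at 14 days. Without replicate 2 at 14 days it was -6.60, which edgeR called (adjusted p = 0.0191).

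Gpr17 and Ncan belong to glia. Gpr17, a receptor that marks oligodendrocyte precursors on their way to differentiate, was at 97.1, 104 and 173 CPM at 14 days and at 55.4, 59, 55.6 and 64.4 CPM at 35 days. Ncan, the chondroitin sulfate proteoglycan neurocan, was at 112, 118 and 198 CPM and then at 74.6, 77.2, 56.3 and 86.4 CPM. For both genes the groups were separate and replicate 3 at 14 days was the highest. Gpr17 differed by -1.09 ± 0.23 (adjusted p = 0.15, DESeq2 0.0118) and Ncan by -0.95 ± 0.18 (adjusted p = 0.0988, DESeq2 0.00278). Without that library the differences were -0.78 and -0.64. In injured control cord they were -0.85 (adjusted p = 0.0547) for Gpr17 and -0.76 (adjusted p = 0.0429) for Ncan. Sham cord at 35 days averaged 49.5 ± 9.94 CPM of Gpr17 and 91.1 ± 4.85 CPM of Ncan.

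Vstm4, Ube2l6 and Colec10 complete the set. Vstm4, an immunoglobulin-domain membrane protein, was at 38.8, 40.9 and 34.8 CPM at 14 days and at 20.2, 20.8, 23.8 and 19.8 CPM at 35 days (log2 -0.85 ± 0.18, adjusted p = 0.15, DESeq2 0.0125). The time groups were well apart, whereas injured control cord held 25.7, 27.9 and 27.4 CPM and then 29.4, 27.7, 22.7 and 33.9 CPM (log2 0.07). The difference between treatments in Vstm4 was -0.92 ± 0.26, with an unadjusted p of 0.00144 and an adjusted p of 0.602. Colec10, a secreted lectin of the collectin family, was at 4.29, 6.43 and 1.53 CPM and then at 0.457, 0.186, 0.121 and 0.877 CPM (log2 -3.23 ± 0.68, adjusted p = 0.15, DESeq2 0.0138). Its groups did not overlap, and control cord differed by -2.02 (adjusted p = 0.0815).

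Ube2l6 encodes an interferon-induced enzyme that attaches ISG15 to proteins and is also abundant in red cell precursors. It was at 67.3, 48 and 22.9 CPM at 14 days and at 17.8, 10.6, 13.1 and 8.82 CPM at 35 days (log2 -1.87 ± 0.43, adjusted p = 0.345, DESeq2 0.0228). The groups were separate, and control cord differed by 0.26 ± 0.44. The difference between treatments was -2.12 ± 0.62 (adjusted p = 0.602). Summed red blood cell transcripts in the same libraries were 2865, 2520 and 881 CPM at 14 days and 675, 227, 170 and 284 CPM at 35 days. The libraries had the same order as for Ube2l6 at 14 days and another order at 35 days. Their part in the Ube2l6 difference was not tested.

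**Figure D2:**
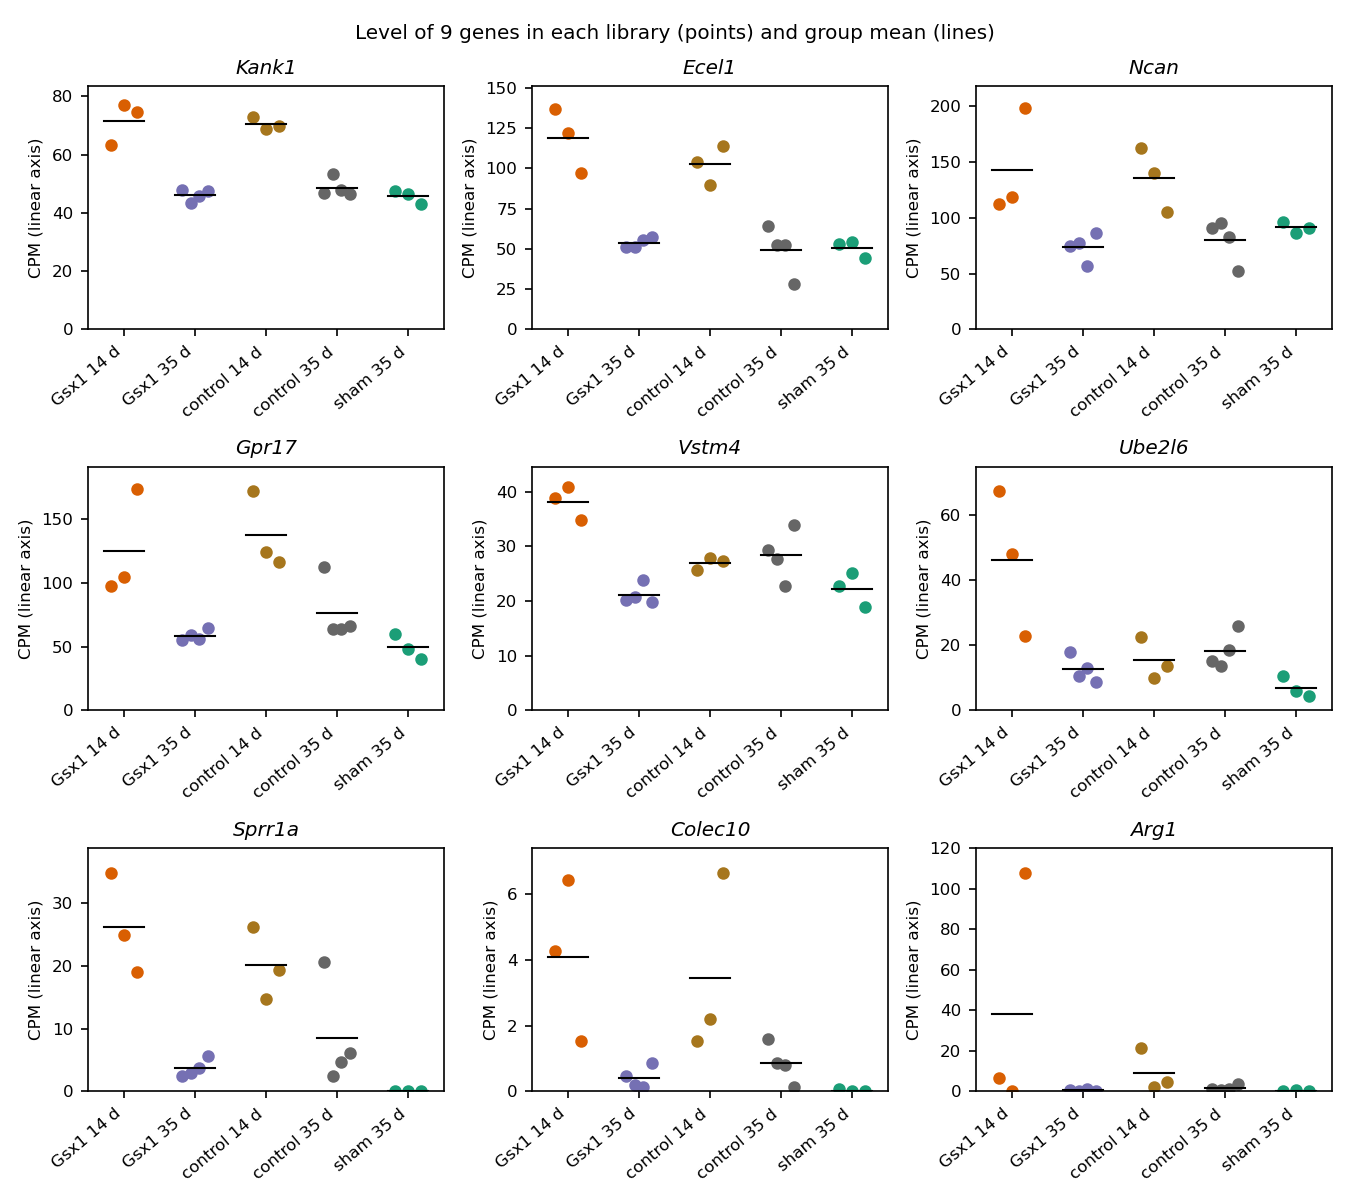
CPM (linear axes from 0) of the 9 genes called by DESeq2, in each library (points) of Gsx1 cord, injured control cord and sham cord, with group means as lines. In 8 of the 9 genes every Gsx1 library at 35 days is below every Gsx1 library at 14 days, and Arg1 is the exception. Of all genes, 3.95% were separate and lower. The 9 were picked by their values in these same libraries, so their separation is no further test.

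Of these 9 genes, 7 had a log2 difference of the same sign in injured control cord, and 3 (Kank1, Ecel1 and Ncan) were called there by edgeR. Vstm4 and Ube2l6 were the exceptions in sign. The share of all genes with the same sign in both treatments was not computed, so the 7 have no background here. Control cord as a whole had 216 genes called between 14 and 35 days (1.32%), 76 lower (0.466%) and 140 higher (0.858%). That count ran from 0 without control replicate 1 at 14 days to 2587 without control replicate 2 at 35 days. The larger count in control cord does not show a different course: the direct test of the difference between treatments, in which no library is shared, called 0 genes in edgeR (1304 at an unadjusted p under 0.05, 7.99%, of which 5.59% of all genes were lower and 2.4% higher in Gsx1 cord) and 0 in DESeq2.

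**Figure D3:**
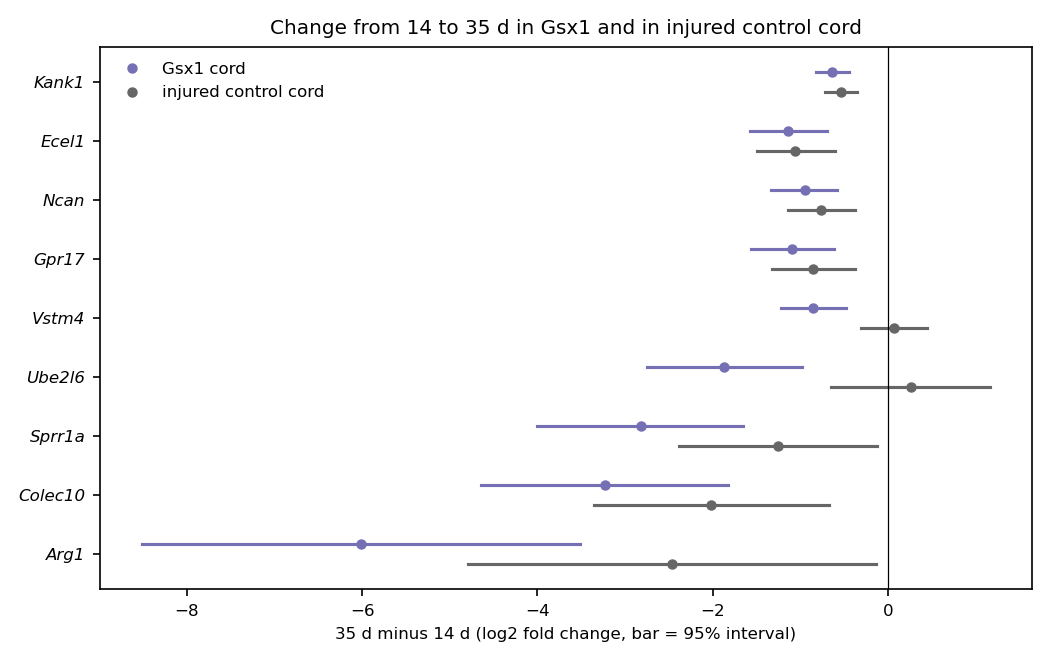
Log2 fold change of 35 over 14 days (points) with 95% intervals (bars) for the 9 genes in Gsx1 cord (purple) and in injured control cord (grey). Intervals of the treatments overlap for all but Vstm4 and Ube2l6, and for neither of those did the test of the difference pass adjustment.

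The 5 genes with the smallest p for the difference between treatments were Bpgm, Atp6ap1l, Ppp1r3c, Sardh and Phgdh, each with an adjusted p of 0.602. Ppp1r3c, which directs a phosphatase to glycogen, was at 101 CPM in each of the 3 Gsx1 libraries at 14 days and at 74.8, 69.6, 82.2 and 67.3 CPM at 35 days. In control cord it was at 73.9, 77 and 77.9 CPM and then at 141, 89.9, 85.9 and 83.4 CPM, so the sign of the change over time was opposite. The difference between treatments was -0.85 ± 0.21. Bpgm, which makes the red cell metabolite bisphosphoglycerate, was at 156, 153 and 95.4 CPM at 14 days and at 98.6, 88.7, 108 and 94.2 CPM at 35 days in Gsx1 cord (difference between treatments -0.93 ± 0.22). Sardh, sarcosine dehydrogenase, differed by -0.67 ± 0.17 and Phgdh, the first enzyme of serine synthesis, by -0.62 ± 0.16. Atp6ap1l was at most 1.11 CPM in the Gsx1 and control libraries of both times.

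Gene lists were described by their members, of which 825 of 854 were tested, and edgeR called none of them. In the list of 15 regeneration-associated genes, 7 had an unadjusted p under 0.05 and were lower at 35 days, and none was higher, beside 2.33% and 1.27% of all genes. Those shares of all genes are also the background for every such count in the lists below. The list's median was -0.21 log2 units, against 0.004 over all genes, and -0.07 without replicate 1 at 14 days. Beside Sprr1a and Arg1, the members were Atf3 (-0.86), Gal (-0.81), Sox11 (-0.58), Jun (-0.31) and Stat3 (-0.28), each with an adjusted p of 1. Gal was -0.39 without replicate 1 at 14 days. Jun, an AP-1 subunit, was at 92.6, 93.5 and 99.2 CPM at 14 days and at 71.1, 72, 84 and 78.8 CPM at 35 days. Sox11, a transcription factor of growing neurons, was at 19.5, 18.8 and 17.9 CPM and then at 12, 10.7, 14 and 13.3 CPM. Neither gene overlapped between times. The other 8 members, Gap43 and Stmn2 among them, had unadjusted p-values above 0.05, and 4 of the 15 were under it without replicate 1 or 3 at 14 days, or without replicate 1 at 35 days. In control cord Sox11 differed by -0.05 and Jun by -0.29.

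Immediate early genes, which respond to activity and stress, had 2 of 16 members lower without adjustment (Jun and Fosl2) and none higher. Fosl2, another AP-1 subunit, was at 22.4, 19.8 and 29.6 CPM at 14 days and at 17.9, 14.5, 14.1 and 16.4 CPM at 35 days. The groups were separate, by -0.60 ± 0.22 (adjusted p = 1), and control cord differed by -0.65 (adjusted p = 0.0895). Without replicate 3 at 14 days no member was under an unadjusted p of 0.05.

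Lists of neuronal and synaptic genes had medians close to no difference. All 16 pan-neuronal markers had an interval within 2-fold, with a median of 0.03. Snap25, a protein of vesicle fusion, was at 1659, 1952 and 1662 CPM at 14 days and at 2084, 2162, 2210 and 2250 CPM at 35 days. Its groups did not overlap, yet the log2 difference of 0.31 ± 0.25 had an adjusted p of 1. All 17 sodium and calcium channel genes were above 0, between 0.03 and 0.23 with a median of 0.10, and all 17 intervals lay within 2-fold. Without replicate 1 or 3 at 14 days 2 of the 17 were below 0, and without replicate 1 at 35 days 1 was. The medians were 0.12 for 16 potassium channel genes, 0.08 for 20 genes of presynaptic vesicle release, 0.10 for 19 of GABAergic and glycinergic transmission and 0.06 for 16 of glutamatergic transmission. Separate and higher at 35 days were 4 of 20 vesicle release, 2 of 16 potassium channel, 2 of 17 sodium and calcium channel and 1 of 16 glutamatergic genes. The share of all genes was 3.56%. Among the 19 GABAergic and glycinergic genes 0 were separate and higher and 1 was separate and lower, beside 3.95% of all genes lower. In control cord the same 5 lists had medians of -0.33 to -0.39, and no member of them was called there or in the test of the difference. Those control medians were not recomputed with libraries left out. For glutamatergic transmission, control replicates 1 and 4 at 35 days, both high in Xist, had a mean log2(CPM + 1) of 5.16 and 4.67. Control replicates 2 and 3 were at 5.63 and 5.45, and the control libraries at 14 days at 5.52 to 5.67. The part of replicates 1 and 4 in the contrast with Gsx1 cord was not tested. Gria2, an AMPA receptor subunit, was at 201, 235 and 233 CPM and then at 259, 260, 263 and 248 CPM (0.21 ± 0.18).

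Replicate 3 at 35 days was the lowest of its group in these synaptic and channel lists. Its mean log2(CPM + 1) was 5.23 for glutamatergic genes against 5.65 to 5.71 in the other 3, 5.70 against 6.22 to 6.27 for GABAergic and glycinergic genes, and 7.75 against 8.16 to 8.20 for vesicle release. It was the highest for cytosolic ribosomal protein genes, 8.08 against 7.56 to 7.60. Without it the medians were 0.13, 0.23 and 0.17 for the 3 transmission lists. Gabra2, a GABA receptor subunit, was the only member of these lists under an unadjusted p of 0.05 and lower, and it differed by -0.16 without replicate 3 at 14 days.

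Dorsal horn neuropeptides had 3 of 14 members lower without adjustment (Adcyap1, Gal and Npy), beside 2.33% of all genes, and none higher. The count was 1 without replicate 1 or 3 at 14 days or replicate 1 at 35 days. Adcyap1, the neuropeptide PACAP, was at 70.9, 64.5 and 31.1 CPM at 14 days and at 28.2, 20.4, 30.1 and 30.8 CPM at 35 days. The groups were separate by a narrow margin (-1.02 ± 0.28, adjusted p = 0.867). Gal, galanin, was at 10.5, 2.81 and 7.58 CPM and then at 3.05, 4.19, 3.64 and 4.99 CPM, with overlap. Npy, neuropeptide Y, was at 15.8, 15.2 and 17 CPM and then at 10.9, 7.91, 15.8 and 9.75 CPM (-0.52 ± 0.25). Calca, which encodes CGRP and was counted with cholinergic and motor neuron genes, was at 89.1, 46 and 40.8 CPM and then at 31.2, 23.1, 58.2 and 28.8 CPM (-0.73 ± 0.31, adjusted p = 1), and its groups overlapped. Without replicate 1 at 14 days its difference was -0.29.

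**Figure D4:**
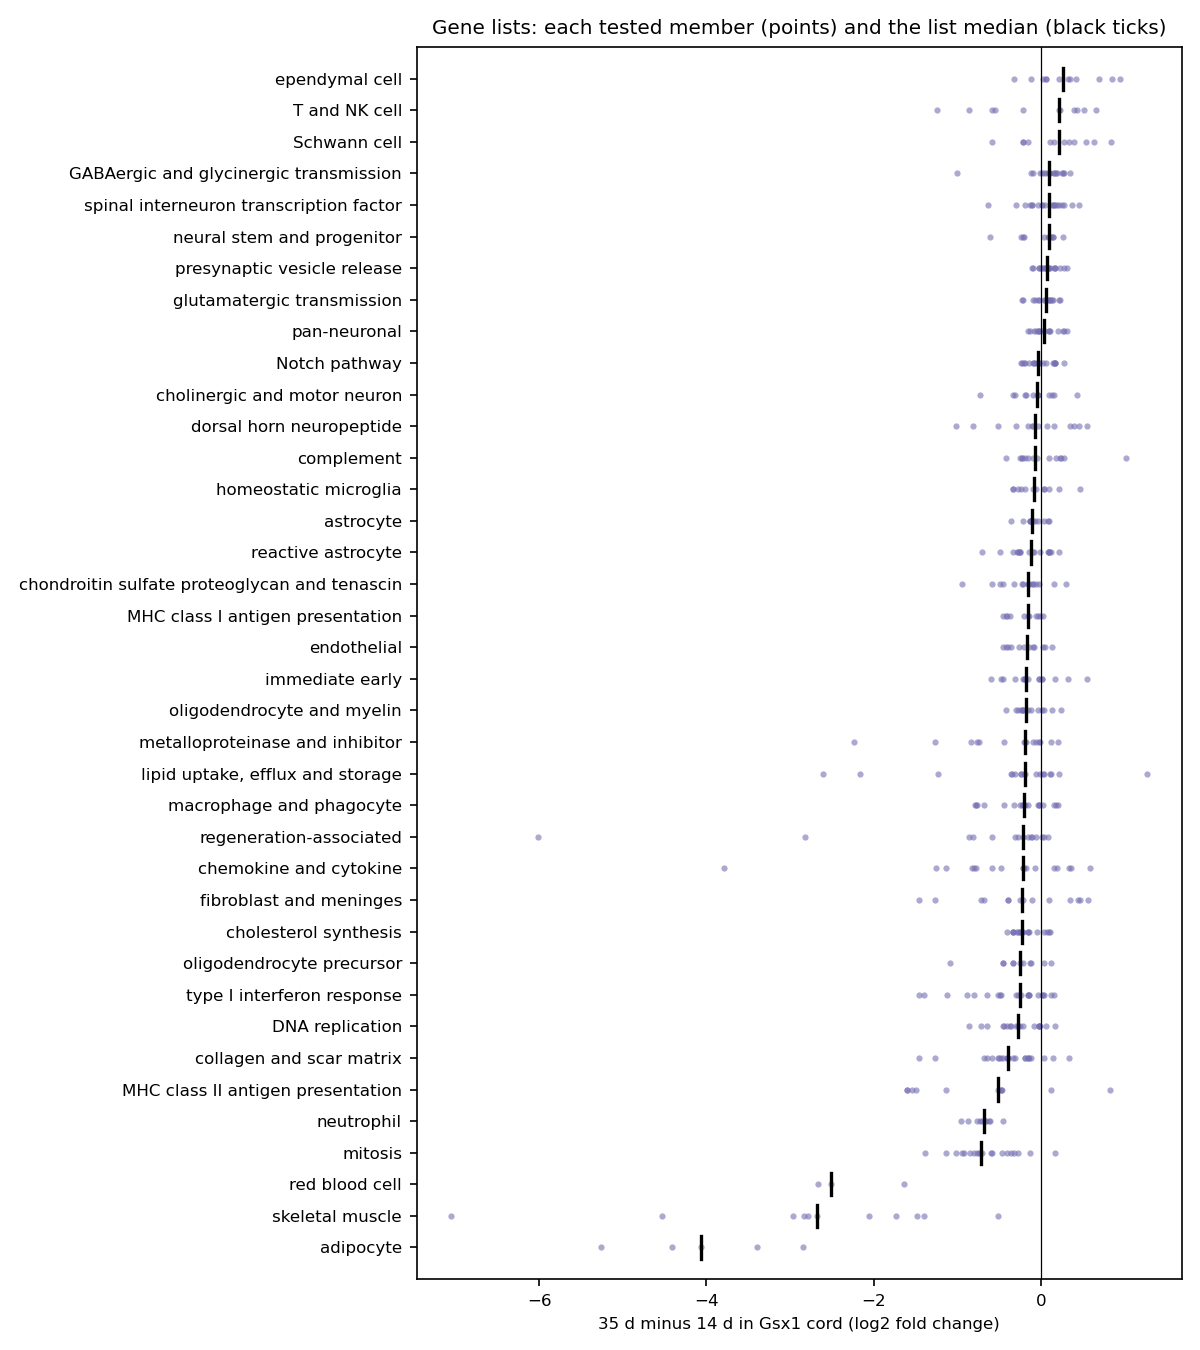
Each purple point is a tested member of the list named on the y axis, at its log2 fold change of 35 over 14 days in Gsx1 cord (x axis), and each black tick is a list's median. Neuronal and synaptic lists sit near 0, and the lowest medians are those of adipocyte (-4.06), skeletal muscle (-2.68) and red blood cell (-2.51) genes.

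Oligodendrocyte precursor genes had 4 of 11 members lower without adjustment, beside 2.33% of all genes, and a median of -0.25. Beside Gpr17 these were Neu4 (20.7, 20.5 and 29.7 CPM, then 15.1, 17.2, 18.1 and 18.3 CPM), Olig2 and Olig1. Without replicate 3 at 14 days 3 members were lower, 6 were below 0 in place of 9, and the median was -0.16. Olig2, a transcription factor of the lineage, was at 69.7, 73.5 and 71.1 CPM and then at 57.2, 62, 60.5 and 61 CPM, separate groups that differed by -0.25 ± 0.09 (adjusted p = 1). Olig1, its partner, was at 380, 340 and 322 CPM and then at 253, 267, 299 and 289 CPM (-0.33 ± 0.15), while in control cord it differed by 0.26. Mature myelin genes had 0 of 14 members under an unadjusted p of 0.05, a median of -0.18 and all intervals within 2-fold. Of the 14, 5 were separate and lower at 35 days and 1 was separate and higher, beside 3.95% and 3.56% of all genes. The 19 genes of cholesterol synthesis had a median of -0.23, 1 lower without adjustment (Mvk, -0.33 ± 0.16), and all intervals within 2-fold. Without replicate 3 at 14 days the median was -0.11, Mvk was -0.13 and none was lower. Without replicate 1 at 14 or at 35 days none was lower either, while 3 were without replicate 2 at 14 days and 2 without replicate 3 at 35 days.

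Astrocyte genes had no member under an unadjusted p of 0.05 among 12, and 12 of 12 intervals lay within 2-fold. Gfap, the intermediate filament of reactive astrocytes, was at 6427, 4943 and 5490 CPM at 14 days and at 3918, 4372, 4997 and 5038 CPM at 35 days. The groups overlapped (-0.29 ± 0.22), and both times were above the 1620 ± 370 CPM (SD, n = 3) of sham cord at 35 days. In control cord Gfap went the other way (0.67, adjusted p = 0.0917), and the difference of -0.96 ± 0.32 had an adjusted p of 0.602. Among 16 genes of chondroitin sulfate proteoglycans and tenascins, Ncan alone was lower without adjustment, and the median was -0.15. Tnc, tenascin C, was at 25.2, 24.4 and 32.8 CPM and then at 21.6, 19.7, 14.5 and 17 CPM, groups that did not overlap (-0.59 ± 0.37, adjusted p = 1). In control cord Tnc fell by 1.55 on the log2 scale (adjusted p = 0.0429), from 92.4, 95.8 and 52.4 CPM to 19.3, 26.1, 22.9 and 40.8 CPM.

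Collagen and scar matrix genes had 21 of 24 members below 0, a median of -0.40, and 1 member lower without adjustment. Col4a1, a basement membrane collagen, was at 85.1, 74.8 and 131 CPM at 14 days and at 66.3, 61, 74.2 and 48 CPM at 35 days (-0.64 ± 0.24, unadjusted p = 0.0129, adjusted p = 1). Its difference was -0.36 without replicate 3 at 14 days. Col1a1, fibrillar collagen, was at 172, 156 and 194 CPM and then at 91.6, 101, 42.3 and 55.4 CPM (-1.27 ± 0.62, adjusted p = 1). Both genes were separate between times, Col4a1 by less than 1 CPM. Control cord had a median of -1.14 for the list and called 5 members lower, Col4a1 by 1.53 (adjusted p = 0.00689). The test of the difference called none of the 24. Members lower without adjustment numbered 4 without replicate 2 at 14 days, 3 without replicate 3 at 35 days and 0 without replicate 3 at 14 days. The median was -0.02 without the last of these, in which Col3a1, another fibrillar collagen, was at 283 CPM against 49.2 and 46.2 CPM.

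Microglial and phagocyte genes had few members with an unadjusted p under 0.05. Homeostatic microglial genes had 0 of 12 and a median of -0.08, although 4 of the 12 were separate and lower at 35 days, beside 3.95% of all genes. Among 20 macrophage and phagocyte genes, 1 was lower without adjustment and 16 were below 0 (median -0.20). Without replicate 3 at 14 days 10 were below 0, with a median of -0.03. The gene lower without adjustment was Emr1, the macrophage antigen F4/80, at 38.9, 33.3 and 57.4 CPM and then at 25.9, 26.3, 22.8 and 27.3 CPM (-0.76 ± 0.34, adjusted p = 1). The count was 0 without replicate 3 at 14 days or replicate 1 or 3 at 35 days. Emr1 did not overlap between times and stood at 3.86 ± 0.228 CPM in sham cord at 35 days. Gpnmb, a gene of lipid-laden phagocytes, was at 431, 155 and 515 CPM and then at 222, 261, 239 and 193 CPM, with overlap. Complement genes had a median of -0.07, and 0 of 14 were under an unadjusted p of 0.05. Their median was 0.05 without replicate 3 at 14 days and 0.02 without replicate 3 at 35 days.

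The MHC class II list had 5 of 11 members lower without adjustment, beside 2.33% of all genes, and the 5 rested on replicate 3 at 14 days. Cd74, the invariant chain, was at 81, 46 and 473 CPM at 14 days and at 48.6, 101, 66.5 and 49.2 CPM at 35 days. H2-Aa, a class II chain, was at 31.4, 14.9 and 200 CPM and then at 24.8, 44.1, 25.1 and 19.1 CPM. Outside that library the times overlapped, and without it Cd74 differed by 0.06 and H2-Aa by 0.28, with a list median of 0.06 and no member under an unadjusted p of 0.05. Without replicate 1 or 3 at 35 days 2 and 3 members were under it. The list of lipid uptake and storage genes had 3 of 18 members lower, among them Cd36 (13, 7.4 and 40.1 CPM, then 8.69, 3.72, 2.24 and 2.96 CPM), again highest in that library. Its difference of -2.17 was -1.19 without that library, and then none of the 18 had an unadjusted p under 0.05.

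Mitosis genes had 19 of 20 members below 0, a median of -0.71 and 4 lower without adjustment, beside 2.33% of all genes. Top2a, the topoisomerase of dividing cells, was at 23.7, 11 and 16.8 CPM at 14 days and at 14.4, 6.51, 6.73 and 8.11 CPM at 35 days (-0.92 ± 0.44, adjusted p = 1). Ccnb2, cyclin B2, was at 4.41, 2.41 and 2.93 CPM and then at 1.93, 1.3, 1.27 and 1.31 CPM, which did not overlap (-1.14 ± 0.40, adjusted p = 1). Replicate 1 was the highest library of its group in both genes at both times. Leaving out replicate 1 at 14 days moved the list's median to -0.25, with no member under an unadjusted p of 0.05, and leaving out replicate 1 at 35 days moved it to -0.83, with 8. Without replicate 2 at 14 days it was -0.94, with 9. Sham cord at 35 days held 1.35 ± 0.871 CPM of Top2a (SD, n = 3). DNA replication genes had a median of -0.27 and 1 of 20 lower, Tyms (-0.64 ± 0.29), whose groups overlapped. Their median was -0.16 with none lower without replicate 1 at 14 days, and -0.35 with 2 lower without replicate 1 at 35 days. None was lower without replicate 3 at 35 days.

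Neutrophil genes showed how far a single library reached. All 10 members were below 0 and their median was -0.69, with none under an unadjusted p of 0.05. Summed over the list, the libraries held 531, 106 and 89.8 CPM at 14 days and 403, 96.4, 22.6 and 74.8 CPM at 35 days, high in replicate 1 at each time. Without replicate 1 at 14 days all 10 members were above 0 with a median of 0.62, and without replicate 1 at 35 days the median was -1.94, with 4 members lower without adjustment. Ltf, lactoferrin, was at 108, 19.3 and 14.3 CPM and then at 65, 19.3, 2.54 and 15.6 CPM.

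Transcripts of blood, muscle and fat differed most in fitted size. The 3 red blood cell genes tested were all below 0, with 2 lower without adjustment. Beta-s, an adult beta globin whose reads may be shared with other globin copies, was at 2550, 2290 and 810 CPM at 14 days and at 572, 203, 152 and 255 CPM at 35 days (-2.67 ± 0.68, adjusted p = 0.703). Alas2, the erythroid enzyme of haem synthesis, was at 202, 192 and 59 CPM and then at 53.8, 16.8, 11.6 and 23.2 CPM. Both genes were separate between times, whereas in control cord they differed by -0.17 and -0.18. The difference between treatments was -2.51 ± 0.96 in Beta-s (unadjusted p = 0.0148, adjusted p = 0.602).

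Of 11 skeletal muscle genes tested, 8 were separate and lower at 35 days, beside 3.95% of all genes. All 11 members were below 0, and 4 were lower without adjustment. Their sum was 18.8, 77.2 and 16.6 CPM at 14 days and 7.52, 6.79, 5.7 and 7.18 CPM at 35 days, and 10.5 to 117 CPM in sham cord at 35 days. Acta1, muscle actin, was at 2.3, 19.7 and 1.8 CPM and then at 0.965, 1.49, 0.848 and 0.877 CPM. The median of -2.68 was -1.21 without replicate 2 at 14 days, with 1 member lower without adjustment, and 2 were lower without replicate 1 or 3 at 35 days. The 5 adipocyte genes summed to 1.86, 0.344 and 26.7 CPM at 14 days and to at most 0.727 CPM at 35 days, and Ucp1, the uncoupling protein of brown fat, was at 0.932, 0.115 and 16.3 CPM and then at 0 to 0.303 CPM. Replicate 3 at 14 days thus held most of the fat transcripts, and without it the list's median was -0.84 in place of -4.06. Injured control cord had medians of like size over the same times, -2.50 for the muscle list and -4.80 for the fat list. Its muscle sums were 96.8, 13.7 and 81.3 CPM at 14 days and 8.04 to 21.5 CPM at 35 days. Its fat sums were 38.2, 0.333 and 7.35 CPM and then 0.221 to 0.742 CPM. In both lists control replicate 2 at 14 days lay within the 35-day range. The test of the difference between treatments called 0 members of either list. Whether muscle, fat or blood was part of the tissue taken was not tested.

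**Figure D5:**
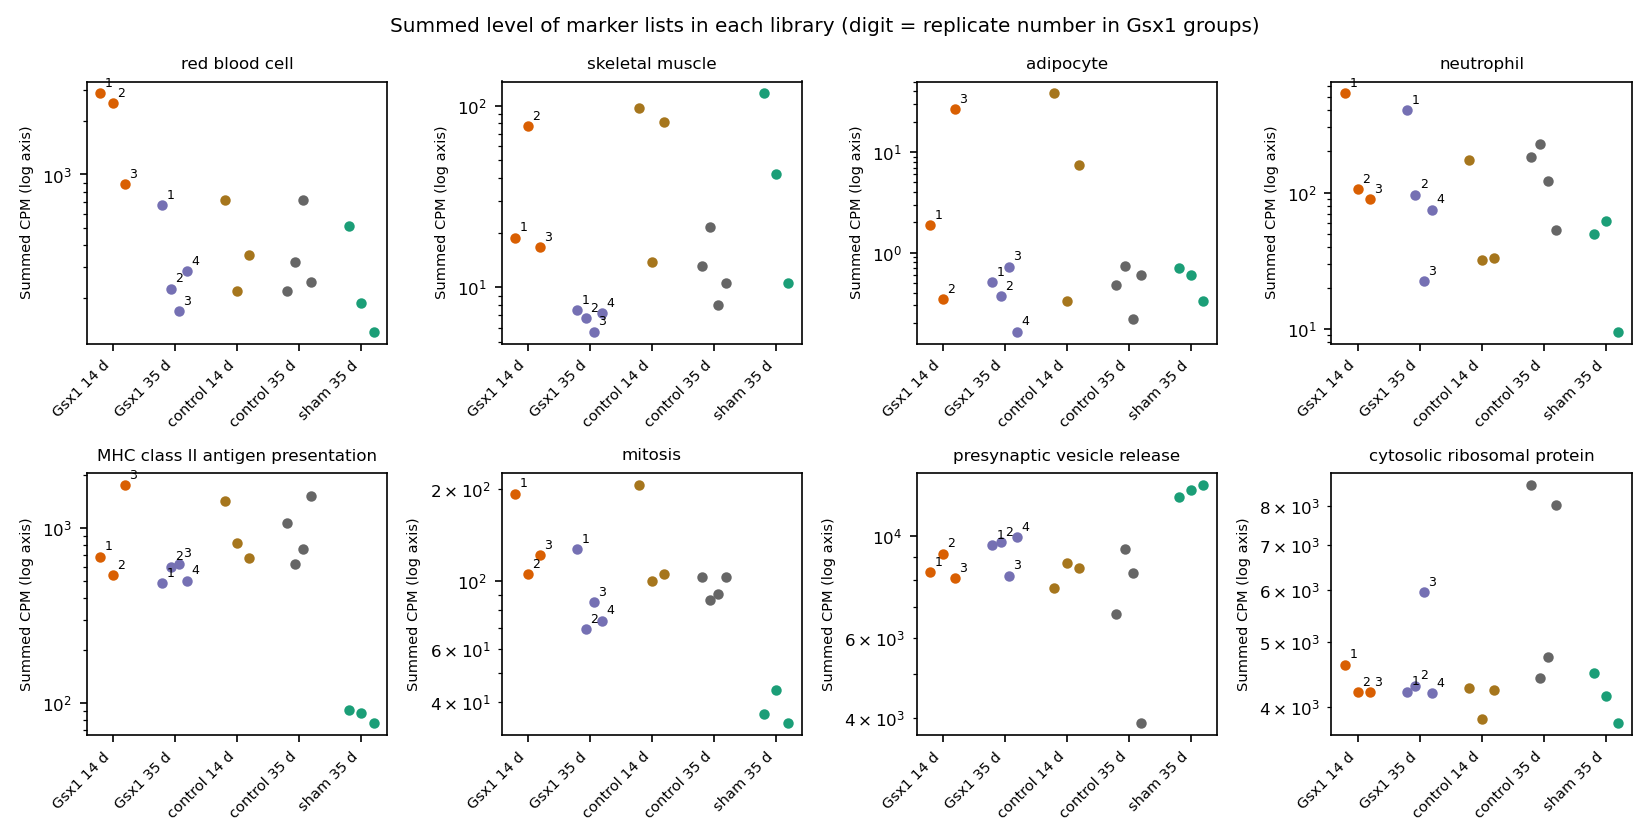
Summed CPM (log axes) of 8 gene lists in each library of Gsx1, injured control and sham cord, with the replicate number printed beside the points of the Gsx1 groups. Replicate 3 at 14 days is highest of the Gsx1 libraries for adipocyte (26.7) and MHC class II genes, and replicate 1 is highest for neutrophil genes at both times (531 and 403).

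A few lists leaned upward. Ependymal genes, of the ciliated cells that line the central canal, had 10 of 12 members above 0 and a median of 0.27. Of the 12, 2 were higher without adjustment, beside 1.27% of all genes. Ak7, a ciliary adenylate kinase, was at 4.04, 4.99 and 5.25 CPM at 14 days and at 6.91, 5.96, 10.8 and 7.07 CPM at 35 days (0.69 ± 0.32, adjusted p = 1). The other was 1700009P17Rik (0.95 ± 0.42, adjusted p = 1). Both were separate between times, with replicate 3 at 35 days the highest, and neither had an unadjusted p under 0.05 without it or without any of the 3 libraries at 14 days. Without replicate 3 at 35 days 5 of the 12 members were below 0 and the median was 0.12. Control cord had a median of 0.49 for the list.

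Genes tied to what Gsx1 does in development lay close to no difference in their medians. The 22 Notch pathway genes had none under an unadjusted p of 0.05, a median of -0.03, and 21 intervals within 2-fold. Notch1 was at 74.5, 83.8 and 78.8 CPM and then at 69, 69.8, 59.1 and 72 CPM (-0.23 ± 0.13). It was 1 of 2 members among the 22 that were separate and lower, beside 3.95% of all genes. Of 24 interneuron transcription factors 20 were tested, with a median of 0.09 and none under an unadjusted p of 0.05. Among the 20, 1 was separate and lower and 1 separate and higher, beside 3.95% and 3.56% of all genes. Neural stem and progenitor genes had 1 of 12 lower, Msi1 (-0.24 ± 0.10, adjusted p = 1), and a median of 0.09. Without replicate 3 at 35 days the median was -0.04, with 9 of 12 below 0 and 2 lower. Without replicate 2 at 14 days 2 were lower, and without replicate 1 at 14 or at 35 days none was. The gene with the smallest p among those higher at 35 days, Fundc2, a mitochondrial outer membrane protein, was at 50.9, 60.3 and 49.3 CPM and then at 69.9, 72.3, 66 and 63.6 CPM. Its groups were separate (0.34 ± 0.09, adjusted p = 0.703), and control cord differed by 0.33.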

How the data were processed

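RNA from mouse spinal cord was sequenced in paired reads on an Illumina MiSeq, per the labels. The authors' deposited table holds raw read counts per gene symbol, and the submitters' processing notes name HISAT2, SAMtools, HTSeq and DESeq2 and the builds mm10 and GRCm38. The sources used here give no versions or strand settings, so reads of overlapping or antisense genes cannot be told apart. Of 23420 genes, 16314 passed edgeR's filterByExpr (minimum count 10, minimum total 15). All 32 libraries in 10 groups entered 1 model in edgeR 4.0.16 (R 4.3.3) with TMM scaling and the quasi-likelihood F test, with 22 residual degrees of freedom. P-values were adjusted by the Benjamini-Hochberg method over all genes tested. Each standard error is the log2 fold change divided by the square root of F, and intervals are 95%. CPM are edgeR's, on TMM-scaled library sizes. The fit was tested on simulated data.

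The comparison and the gene lists were chosen with earlier results of these data known. Genes were named when called, as the members with the smallest p of each list described (at most 5), or as the 5 with the smallest p for the difference between treatments. The DESeq2 (1.42.0) calls, Atf3, Fundc2 and the clock genes were named after their values were seen. Same-numbered libraries of the 2 times correlated at 0.051, 0.15 and -0.008 in their deviations, so the numbers were not taken as pairs. Alternatives were other scaling, DESeq2, no filter, the compared groups alone, a replicate block, leaving out libraries with Xist over 100 CPM or each library in turn, and robust dispersions (added after seeing the data). Gene positions come from GENCODE M21 and promoters from RefSeq.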

Additional observations from a re-analysis of the deposited data

Results flagged for a closer look

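Within the 4 Gsx1 libraries at 35 days, 195 values were checked for a library far from its group by Dixon's ratio at its 95% critical value. Of these, 24 (12.3%) were flagged. Chance flags about 1 in 20 independent values. The values here come from the same 4 libraries, and lists were checked beside their own members, so that rate is no measure for them. Most flags were in replicate 3. That library was flagged for Cidec, a lipid droplet gene, at 0.121 CPM against 0 in the other 3. That level is near the detection limit, and with 0 elsewhere any read is flagged. Replicate 3 was also high in Gap43 (167 CPM), a growth cone protein, Cck (26.4 CPM), a neuropeptide, Npas4 (9.15 CPM), an activity-dependent transcription factor, and 1700009P17Rik (8.72 CPM). It was low in Grm5 (76.6 CPM) and Gabrb2 (45.1 CPM), receptors for glutamate and GABA, in Slc1a2 (1579 CPM), the astrocytic glutamate transporter, in Xylt1 (6.06 CPM), which starts chondroitin sulfate chains, and in the clock output genes Dbp (58.6 CPM) and Hlf (56.2 CPM).

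As mean log2(CPM + 1), the same library was high for sensory ganglion genes (2.88) and cytosolic ribosomal protein genes (8.08). It was low for chondroitin sulfate proteoglycan and tenascin genes (5.38), glutamatergic (5.23) and GABAergic and glycinergic genes (5.70), presynaptic vesicle release (7.75), potassium channels (6.20), sodium and calcium channels (6.59) and neurotrophic factors and their receptors (4.02).

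Replicate 1 at 35 days was high in Ccnb2 (1.93 CPM), Rrm2 (10.9 CPM), a nucleotide reductase of dividing cells, and Slc4a1 (49.7 CPM), the red cell anion exchanger. Replicate 4 was low in Atp6ap1l (0.11 CPM), a value near the detection limit.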

How the results depend on the processing

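The count of genes called between 14 and 35 days in Gsx1 cord was 1, and 9 with DESeq2, 2 with the compared groups alone, 3 without the libraries of high Xist, and 1 to 2 when each library was left out. At 2-fold or more it was 0, and 6, 2, 2 and 0 to 1 in the same order. Other scaling, no filter, robust dispersions and the replicate block kept the count at 1, and the block gave Kank1 -0.63. The compared groups alone called Ecel1 and Sprr1a, not Kank1 (adjusted p = 0.167). The difference between treatments gave 0 calls in all 21 alternatives, with 442 to 2950 genes at an unadjusted p under 0.05. For injured control cord the count of 216 was 972 with DESeq2, 25 without a filter, 0 with the compared groups alone, 9 with the replicate block, 2 without the libraries of high Xist, and 0 to 2587 with each library left out (0, 4, 2, 2587, 868 and 34 without replicates 1 and 2 at 14 days and 1 to 4 at 35 days). Of 1909 values for 137 named genes, 1882 kept direction and call and 13 reversed. Reversals without replicate 3 at 14 days, with the range over all libraries left out, were Cd74 (0.06, from -2.07), H2-Ab1 (0.29, from -2.06), Ciita (0.01, from -1.51), H2-Aa (0.28, from -2.04), H2-Eb1 (0.47, from -1.98) and Cidec (0.03, from -6.61). Without replicate 1 at 14 days Cxcr2 was 1.16 (from -2.13) and Ltf 0.62 (from -1.93). Npas4 was -0.03 without replicate 3 at 35 days (up to 0.73). Npas2 was 0.07 and 0.01 without replicate 2 at 14 and at 35 days (from -0.42), and Clock 0.01 and 0.04 without replicate 2 at 14 days and replicate 3 at 35 days (from -0.17). Where a library or fewer groups were left out, fewer samples entered the fit; otherwise the cause was not tested. Depth limits the low genes most, with a median interval half-width of 1.23 log2 units under a log2 CPM of 1.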

Other observations

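Genes of the circadian clock were looked at after their values were seen, and the sources used here do not give the time of day at which tissue was taken. Dbp, a clock output transcription factor, was at 73.8, 43 and 53.5 CPM at 14 days and at 94.6, 102, 58.6 and 95.4 CPM at 35 days in Gsx1 cord (log2 0.63 ± 0.22, adjusted p = 1). The groups overlapped because replicate 3 at 35 days was low. In injured control cord Dbp rose by 1.21 (adjusted p = 0.0392), from 42, 39 and 39.5 CPM to 87.8, 52.6, 119 and 113 CPM. Gm129, a repressor of the clock, was at 9.63, 8.32 and 11 CPM and then at 15.5, 14.8, 13.8 and 17.7 CPM (0.68 ± 0.24), and Per3 was at 44.7, 46.8 and 56.5 CPM and then at 72.3, 78.8, 61.8 and 71.1 CPM (0.52 ± 0.18). Nr1d1, the repressor REV-ERB alpha, was at 120, 128 and 128 CPM and then at 144, 147, 153 and 153 CPM (0.25 ± 0.12). These 3 genes did not overlap between times, each with an adjusted p of 1, and Nr1d1 rose in control cord (0.51, adjusted p = 0.0429). Arntl, the activator of the loop, differed by -0.16 ± 0.16 in Gsx1 cord. Of the 15 clock genes looked at, 4 (these 3 and Per2, 0.50) were separate and higher at 35 days, beside 3.56% of all genes, and all 15 had an adjusted p of 1. Because these genes were picked with their values known, setting their share beside that of all genes is no test.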
